A study of Mus musculus with 3 samples.

Results

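The 9 genes described here, of 32285 gene rows in each count matrix, were those of IL-21, IL-15 and the receptor chains of the common gamma chain cytokines (Il21, Il15, Il21r, Il2rg, Il2ra, Il2rb, Il7r, Il4ra and Il15ra), chosen by name to ask which immune cells of an inflamed nerve held transcripts of the receptors for IL-21, IL-2, IL-15, IL-7 and IL-4. Single-cell RNA-Seq counts were read for 3 libraries of CD45+ cells sorted from sciatic nerves. All the mice were neuropathic NOD.AireGW/+ animals, which carry a partial loss-of-function change of the autoimmune regulator Aire on the NOD background and develop a spontaneous autoimmune neuropathy. A single mouse gave each of libraries 1 and 2, whereas library 3 pooled 2 mice. No other genotype was analysed here, so each comparison is between cell classes of the same mice and none is between diseased and healthy nerves.

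IL-2, IL-4, IL-7, IL-9, IL-15 and IL-21 share a receptor chain, the common gamma chain encoded by Il2rg, which each pairs with a chain of its own, and they signal through the kinases JAK1 and JAK3 to STAT transcription factors. IL-21 is made mainly by activated CD4+ T helper cells and is known for its action on germinal center B cells, plasma cell formation and cytotoxic T cells. IL-15 differs from the others in being held on the surface of the producing cell by IL-15Rα and shown to neighboring cells that carry the beta and gamma chains.

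Cells were assigned to 9 classes by the UMIs of 42 marker genes, none of them among the 9. Conventional CD4 (no Foxp3 UMI), CD8 and Foxp3 T cells numbered 1539, 2022 and 925 over the 3 libraries, NK cells 178 and B cells 539, and 205 monocytes and 209 dendritic cells were kept in all 3 libraries. A regulatory T cell whose Foxp3 was not detected falls in the conventional CD4 class. Leaving out conventional CD4 cells with an Ikzf2 UMI raised the genes called between Foxp3 and conventional CD4 cells from 372 of 10534 to 523 of 10548. Macrophages came almost entirely from library 2 (1776 cells, against 5 and 3 in libraries 1 and 3) and plasma cells from libraries 1 and 2 (13 and 61 cells). Sums of under 10 cells were not used, so every macrophage value below is library 2 alone, and its fit takes the spread from the other sums. Of 18 check markers outside the gates, 16 had their highest mean in the class they mark, the exceptions being Icos (higher in Foxp3 than in conventional CD4 cells) and H2-Ab1 (higher in macrophages than in dendritic cells). The libraries held 3399733 to 55120460 UMIs, with library 3 the shallowest (a median of 1726 UMIs per cell), and 7 to 35 cell barcodes were shared between pairs of libraries. Levels are given as CPM, the UMIs of a gene for every 1000000 UMIs of the summed cells of a class in a library, and they are compared between classes, not between genes.

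Il21, on chromosome 3 (mm10, chr3:37222759-37232636, minus strand), was found mostly in conventional CD4 cells among the gated classes; cells that met no gate held 487 of all 1030 Il21 UMIs (47.3%). Its level in conventional CD4 cells was 80.6, 113.8 and 46.4 CPM in libraries 1, 2 and 3 (80.3 ± 33.7, SD, n = 3), against 7.76, 3.76 and 1.64 in CD8 cells and 5.01, 5.42 and 0 in Foxp3 cells. The gene overlaps an antisense gene, Gm12534, as Il4ra does Gm44876. Every conventional CD4 value lay above every value of the other classes. The log2 difference from conventional CD4 cells was −4.33 ± 0.34 (SE) in Foxp3 cells, with an adjusted p of 2.162e-14 by edgeR's quasi-likelihood test, and −3.98 ± 0.28 in CD8 cells.

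No Il21 UMI was found in 178 NK cells, 74 plasma cells, 205 monocytes or 209 dendritic cells. With 3 counts over the group taken as the limit that a count of 0 allows, the pooled conventional CD4 level of 96.3 CPM was at least 23.3-fold higher than in NK cells, 38.1-fold higher than in monocytes, 60.9-fold higher than in plasma cells and 64.9-fold higher than in dendritic cells. The plasma cell bound is of all UMIs, 51.4% of them immunoglobulin, and would be smaller on the other UMIs. B cells held 1 Il21 UMI and the 1776 macrophages held 1. The contrast of conventional CD4 cells with the mean of the other 8 classes was called (edgeR, adjusted p = 5.069e-28), and its fitted difference of 8.02 is no bound, because several classes were at 0. Of 8 genes tested in that contrast, 6 were higher and none lower, where 27.9% of all 10534 genes tested were called, 19.4% higher and 8.47% lower. The Il2rg call was lost without library 1 (0.39, adjusted p = 0.0900), and those of Il21r (0.42, adjusted p = 0.129) and Il2rg (0.33, adjusted p = 0.230) were lost when cells with UMIs of another lineage were kept. For Il21r, Il2rg and Il2rb the mean of Foxp3 cells was above that of conventional CD4 cells.

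Cells with an Il21 UMI made up 13.3%, 15.2% and 4.55% of the conventional CD4 cells of libraries 1, 2 and 3. With every cell thinned to 1000 UMIs, to set aside depth, the mean share was 6.27% ± 2.66 (SD, n = 3), against 0.449% in CD8 cells, 0.350% in Foxp3 cells and 0 of 516 B cells, which allows a share of up to 1.20% in library 2, the library with the most B cells. Library 3 had the lowest depth and the lowest CPM, and after thinning its share was still the lowest (3.27%, against 8.32% in the highest library). The cause was not tested.

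Because Il21 and Il2ra each stood apart in a single T cell class, the bases upstream of their start sites are shown, with GGAAA, the core bound by NFAT factors after T cell receptor stimulation, and its reverse complement TTTCC in capitals (RefSeq start sites, GRCm38.p6, 5′ to 3′ on the gene's strand; chr3:37232637-37232886, minus strand, for Il21 and chr2:11642542-11642791, plus strand, for Il2ra).
Il21: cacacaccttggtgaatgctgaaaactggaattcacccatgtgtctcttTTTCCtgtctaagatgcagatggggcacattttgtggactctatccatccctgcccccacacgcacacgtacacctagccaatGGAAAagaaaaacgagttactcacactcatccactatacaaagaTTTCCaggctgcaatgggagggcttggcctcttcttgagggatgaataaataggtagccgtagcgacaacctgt
Il2ra: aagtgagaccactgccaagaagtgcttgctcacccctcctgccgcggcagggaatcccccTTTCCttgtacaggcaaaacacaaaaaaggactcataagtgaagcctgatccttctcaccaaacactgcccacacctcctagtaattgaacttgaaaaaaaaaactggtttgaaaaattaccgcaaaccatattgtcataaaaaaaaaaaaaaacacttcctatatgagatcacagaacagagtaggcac
The Il21 window held 3 such matches and the Il2ra window 1. The motif is short, and 55.6% of 32851 promoter windows of the same length held it. It was in 6 of the 7 members with a RefSeq window, with 4 matches in a window of Il15ra, so it was not particular to these genes. TTCNNNGAA, the palindrome bound by STAT factors, was in neither window on either strand; it was in 7.02% of all windows and in 1 of the 7 members with a RefSeq window, Il7r.

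**Figure D1:**
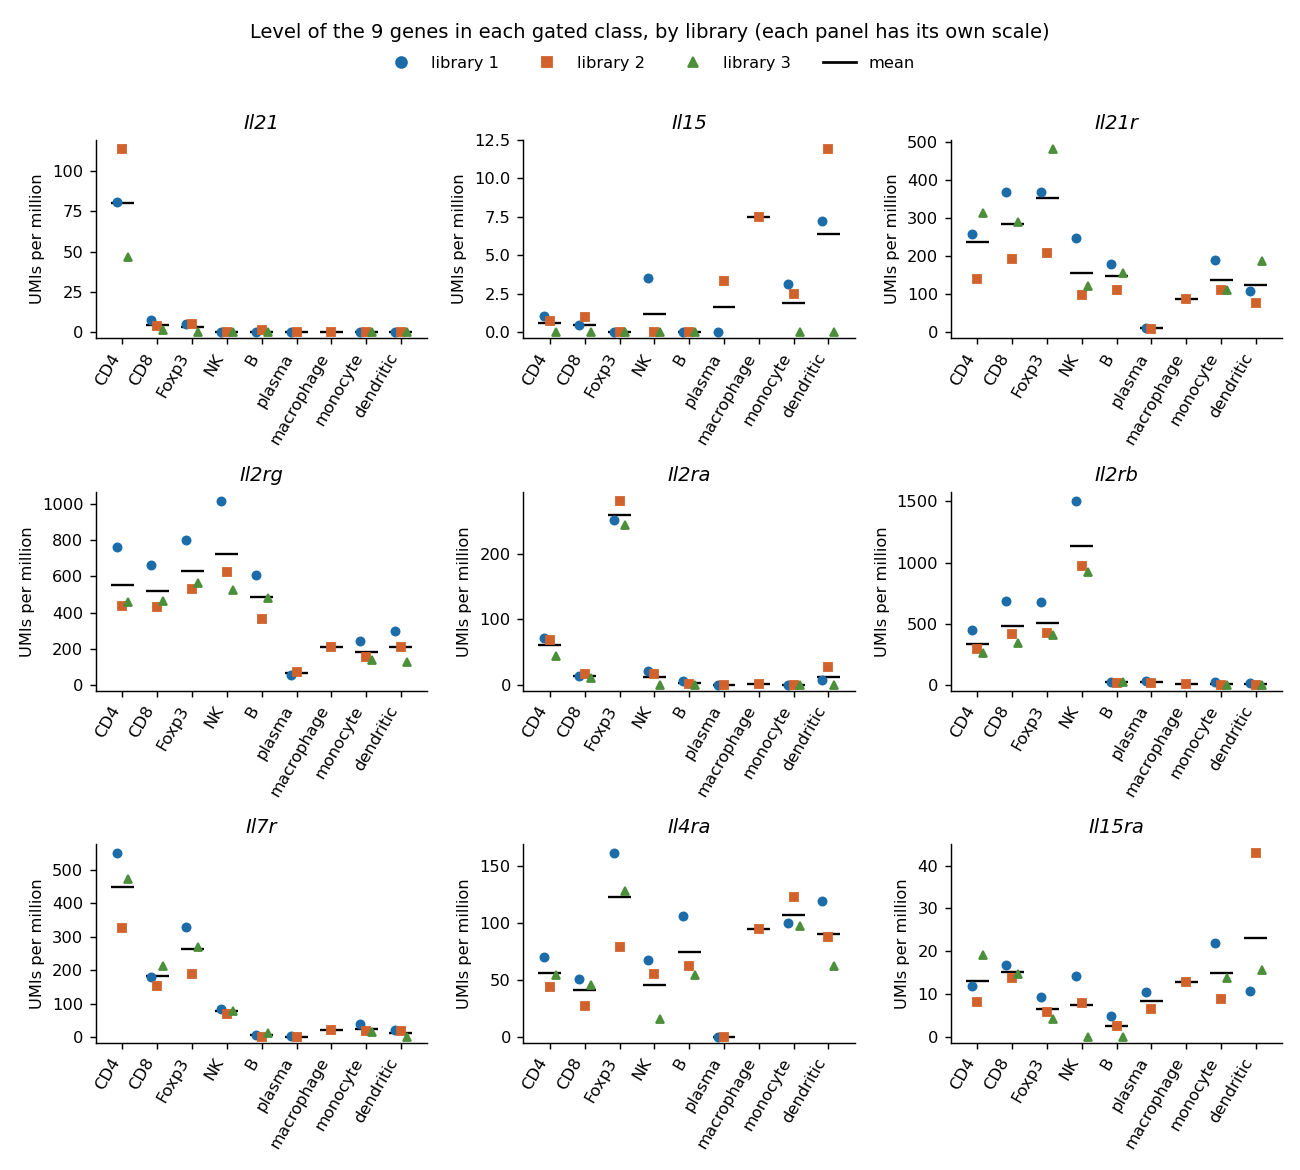
Level of each of the 9 genes (CPM, linear axes that differ between panels) in the 9 gated classes, with one symbol per library and a bar at the mean; macrophages are library 2 alone and plasma cells libraries 1 and 2. Il21 stood apart in conventional CD4 cells, Il2ra in Foxp3 cells and Il2rb in NK cells, whereas Il21r and Il2rg were present in every class and lowest in plasma cells.

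IL-2 and IL-4, the other T cell ligands of the family, were read from the list of 19 further pathway genes. Il2 gave 239 UMIs in conventional CD4 cells, at 46.5 ± 30.0 CPM (SD, n = 3), against 20 in CD8 and 14 in Foxp3 cells. No Il2 UMI was found in NK, B or plasma cells or in any myeloid class. Il4 gave 9 UMIs in conventional CD4 cells and 1 in CD8 cells. Il7, made mainly by stromal cells, gave 5 UMIs over all gated cells and Il9 gave none.

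Il15 was a sparse transcript held mainly by macrophages and dendritic cells. It reached 7.46 CPM in macrophages (102 UMIs in 96 of 1776 cells) and 7.23, 11.9 and 0 in the dendritic cells of libraries 1, 2 and 3. The 5 lymphocyte classes together gave 11 UMIs, a mean over classes of 0.457 CPM, and the 3 myeloid classes 127, a mean of 5.24 CPM. Foxp3 and B cells gave none, and monocytes gave 3. Plasma cells, which are in neither group, gave 5, all in library 2 (3.31 CPM there). Il15 did not pass the filter on low counts in the fit over all classes, so no test was made there; without the filter it was lower in lymphocytes (edgeR, −4.07 on the log2 scale, adjusted p = 1.398e-06).

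Il21r, the chain of its own of the IL-21 receptor (chr7:125603429-125633570, plus strand), was read in every class. Foxp3 cells had 369, 210 and 483 CPM in libraries 1, 2 and 3 (354 ± 138, SD, n = 3), CD8 cells 285 ± 88.1 and conventional CD4 cells 238 ± 88.0, and these ranges overlapped. NK cells (157 ± 80.9), B cells (149 ± 34.6), monocytes (138 ± 46.6) and dendritic cells (125 ± 56.5) followed, each overlapping its neighbor in the order. Macrophages had 88.4 in library 2 alone and have no place in this order of means. Within library 2 they were above dendritic cells (78.6) and below NK cells (97.4) and monocytes (110.4). Library 2 gave the lowest Il21r level in every class read in more than 1 library.

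Lymphocytes, as the mean of conventional CD4, CD8, Foxp3, NK and B cells, had more Il21r than the mean of the 3 myeloid classes by 0.44 ± 0.13 on the log2 scale (edgeR, adjusted p = 0.00327), a call lost without library 1 (0.31, adjusted p = 0.101). In this contrast 5 of 8 members tested were higher and 2 lower, where 52.6% of all genes were called, 26.6% higher and 26% lower. Il21r did not differ at the threshold between Foxp3 and conventional CD4 cells (0.48 ± 0.18, adjusted p = 0.156) or between CD8 and conventional CD4 cells (0.43 ± 0.18, adjusted p = 0.138), with unadjusted 95% intervals of 0.13 to 0.84 and 0.09 to 0.78. Without library 3 the CD8 difference was called (0.59, adjusted p = 0.0129), and with stricter gates the Foxp3 difference was (0.70, adjusted p = 0.0308).

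Il2rg (chrX:101264378-101268255, minus strand), the chain that the family shares, had its highest mean in NK cells and its lowest in plasma cells. The NK range overlapped that of Foxp3 cells, and NK cells were above Foxp3 cells in 2 of 3 libraries. NK cells had 1020.0, 624 and 524 CPM, Foxp3 cells 804, 531 and 562, conventional CD4 cells 763, 438 and 456, CD8 cells 662, 432 and 462 and B cells 610, 366 and 481. All lymphocyte values other than plasma cells exceeded those of dendritic cells (125 to 300), macrophages (210.0) and monocytes (139 to 245). The difference between lymphocytes and myeloid cells was 1.11 ± 0.13 (edgeR, adjusted p = 2.765e-10). The gene overlaps a protein-coding model on the same strand, Gm20489, with which reads could be shared.

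Plasma cells stood apart from B cells in both IL-21 receptor chains. Il21r was 13.02 and 7.94 CPM in the plasma cells of libraries 1 and 2, against 180, 112 and 156 in B cells, and Il2rg was 52.1 and 72.8. Il21r was lower by 2.47 ± 0.35 (edgeR, adjusted p = 5.982e-08) and Il2rg by 1.61 ± 0.25 (adjusted p = 4.169e-07), both in 2 of 2 libraries and with no overlap. Il4ra gave 0 UMIs in 74 plasma cells among 1895709 UMIs and 141 in B cells. In CPM of all UMIs this was at least 51.7-fold lower against the limit for a count of 0. With immunoglobulin UMIs left out of the total the bound would be smaller.

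Il15ra, from 14 UMIs in plasma and 6 in B cells, was higher in plasma cells by 2.39 ± 0.76 (adjusted p = 0.0111). Thus 3 of 8 members tested were lower in plasma cells and 1 higher, where 31.5% of all genes were called, 16.9% lower and 14.7% higher. Immunoglobulin transcripts took 51.4% of the plasma cell UMIs in each library, against 0.905% to 2.63% in B cells. Without them Il21r was lower by 2.53 on the log2 scale (adjusted p = 1.758e-08). With cells thinned to 1000 UMIs neither chain passed the threshold (Il21r −8.27, adjusted p = 0.355; Il2rg −1.84, adjusted p = 0.239), and Il15ra turned sign (−3.28, adjusted p = 0.910). Among the 19 pathway genes 9 were lower in plasma cells, among them Jak1 (−2.77), Stat3 (−2.30) and Stat6 (−3.35), and Socs2 was higher (3.35). In thinned cells Jak1 (−1.66) and Stat3 (−1.10) were not called and Socs2 turned sign (−3.18, adjusted p = 0.902).

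Il2ra, the alpha chain that gives the IL-2 receptor its high affinity and a known mark of regulatory T cells (chr2:11642807-11693193, plus strand), was 252, 281 and 244 CPM in Foxp3 cells (259 ± 19.3, SD, n = 3). Conventional CD4 cells had 71.5, 67.8 and 43.7, and CD8 cells 13.8, 15.8 and 9.86. The 3 classes did not overlap. Foxp3 exceeded conventional CD4 cells by 1.96 ± 0.20 (edgeR, adjusted p = 4.468e-11), and CD8 cells were lower than conventional CD4 cells by 2.10 ± 0.23 (adjusted p = 2.319e-10). Monocytes and plasma cells held no Il2ra UMI, at least 106-fold and 168-fold below the pooled Foxp3 level in CPM of all UMIs. The plasma cell bound would be smaller with immunoglobulin UMIs left out.

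Other members also separated Foxp3 from conventional CD4 cells. Il4ra was 161, 79.1 and 128 in Foxp3 cells and 70.4, 43.5 and 54.6 in conventional CD4 cells, a difference of 1.01 ± 0.22 (edgeR, adjusted p = 0.00171) with no overlap, though without library 1 it missed the threshold (0.89, adjusted p = 0.0857). Il7r fell by 0.86 ± 0.18 (adjusted p = 0.000796) and was lower in 3 of 3 libraries. Both calls were lost when cells with UMIs of another lineage were kept (Il4ra 0.66, adjusted p = 0.370; Il7r −0.76, adjusted p = 0.151). Il2rb (0.50 ± 0.27, adjusted p = 0.520) and Il2rg (0.13 ± 0.19) were not called. Thus 2 of 8 members tested were higher and 2 lower in Foxp3 cells, where 3.53% of all genes were called, 1.82% higher and 1.71% lower. Of the 14 pathway genes tested there, only Il2 was called (−3.62, adjusted p = 7.253e-09). Cish and Socs2, which STAT5 induces, were at 87.3 ± 15.8 and 122 ± 13.2 CPM in Foxp3 cells and 75.9 ± 14.8 and 104 ± 40.2 in conventional CD4 cells.

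Il2rb, the beta chain used by IL-2 and IL-15 (chr15:78479256-78495271, minus strand), was highest in NK cells, whose survival is known to need IL-15. NK cells had 1503, 974 and 925 CPM, CD8 cells 685, 418 and 343, Foxp3 cells 680, 426 and 405 and conventional CD4 cells 449, 294 and 259. No NK value overlapped those of T cells. NK exceeded CD8 cells by 1.12 ± 0.28 (edgeR, adjusted p = 0.0149), higher in 3 of 3 libraries, but without library 3 the adjusted p was 0.243 (1.10), and with DESeq2 it was 0.0990 (1.24). CD8 cells were above conventional CD4 cells in 3 of 3 libraries, and the difference was not called (0.63 ± 0.27, adjusted p = 0.211; unadjusted 95% interval 0.10 to 1.16); without library 2 it was (0.64, adjusted p = 0.0486).

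Compared with CD8 cells, NK cells also had less Il7r (−1.29 ± 0.25, adjusted p = 0.000177) and less Il21r (−0.89 ± 0.21, adjusted p = 0.00287), a call lost without library 2 (−0.73, adjusted p = 0.111). Il2rg was 0.34 ± 0.19 higher and not called. Thus 1 of 8 members tested was higher and 2 lower, where 8.02% of all genes were called, 3.51% higher and 4.51% lower, and 0 of 14 pathway genes were. The NK gate takes cells without a Cd3 UMI, and Trbc2, a T cell receptor gene, still stood there at 20.2% to 39.4% of its T cell level; the part this plays was not tested.

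Il7r, the alpha chain for IL-7, which maintains naive and memory T cells (chr15:9505788-9530176, minus strand), was highest in conventional CD4 cells at 549, 327 and 473 CPM, followed by Foxp3 cells at 328, 188 and 269 and CD8 cells at 181, 153 and 212. NK cells had 68.4 to 85.3 and B cells 6.27, 0 and 13.5. CD8 cells lay below conventional CD4 cells with no overlap (−1.17 ± 0.17, edgeR, adjusted p = 5.834e-07). In that comparison 3 of 8 members tested were lower (Il21, Il2ra and Il7r) and none higher, where 8.72% of all genes were called, 3.72% higher and 5% lower; Cish (−1.31) and Socs2 (−3.53) were among 5 pathway genes that were lower too.

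B cells combined a high Il2rg with little of the T cell alpha and beta chains. Il7r was lower than in the mean of the 3 T cell classes by 5.88 ± 0.34, Il2rb by 4.30 ± 0.37, Il2ra by 4.01 ± 0.42 and Il21r by 0.74 ± 0.17 (edgeR, adjusted p from 5.764e-23 to 0.000347). Il2rg differed by −0.11 ± 0.16 (adjusted p = 0.648), a sign that turned without library 2 (0.05). Il4ra, the IL-4 receptor chain through which B cells are known to be primed for class switching (chr7:125552120-125579474, plus strand), was 107, 61.9 and 54.2 CPM in B cells and 0.45 ± 0.20 above T cells, not called (adjusted p = 0.0910). Thus 5 of 8 members tested were lower, Il21 among them, and none higher, where 31.4% of all genes were called, 14.5% higher and 16.8% lower. Il9r, the receptor of IL-9, was the pathway gene that rose in B cells, at 21.9 ± 8.72 CPM against 0.600 to 2.46 in the T cell classes (4.66 ± 0.54, adjusted p = 1.816e-10).

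**Figure D2:**
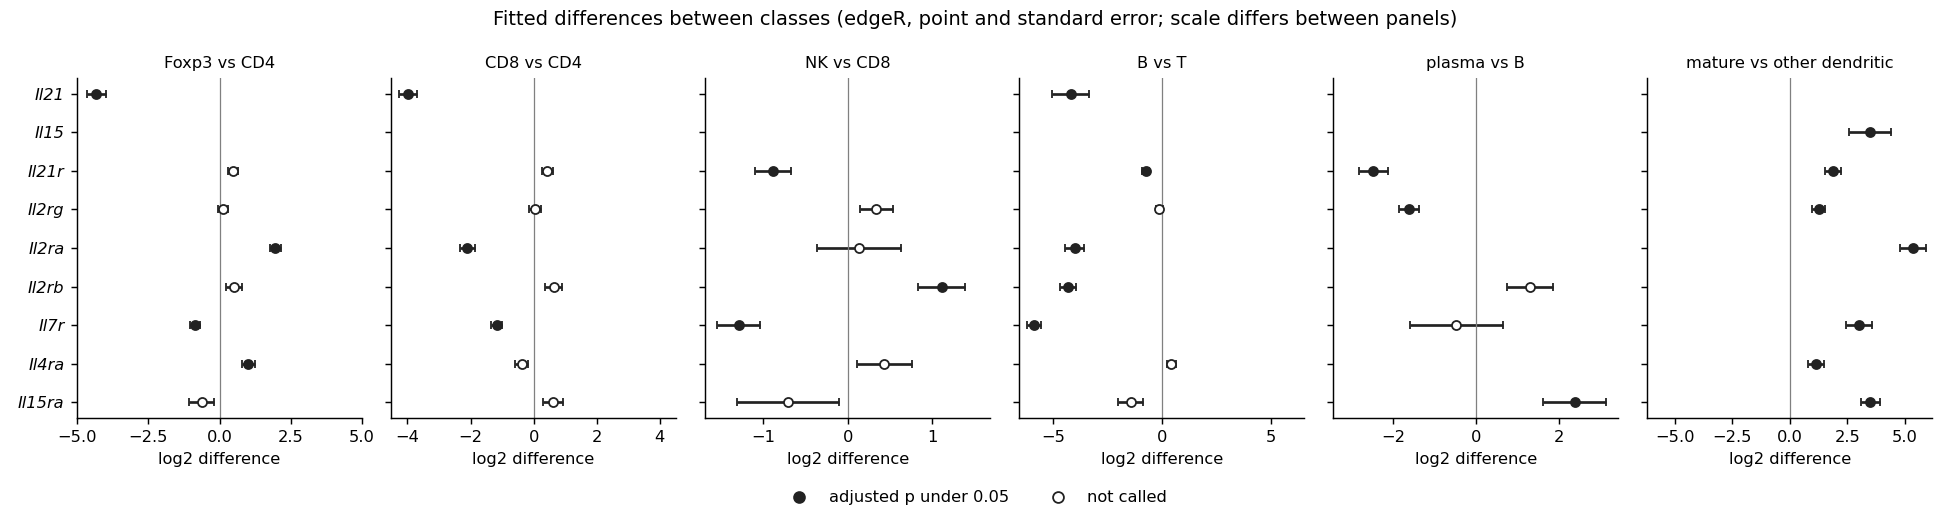
Fitted log2 differences of the 9 genes in 6 comparisons, with the standard error as bars and filled symbols at an edgeR adjusted p under 0.05; genes with 0 UMIs in a class of the pair, or not tested, are left out, and the scales differ between panels. Il2ra was higher in Foxp3 than in conventional CD4 cells and Il2rb higher in NK than in CD8 cells. The 7 members drawn for mature against other dendritic cells had positive differences. The mature arm there is 1 sum of 50 cells from library 2, through which alone Il15 passed the filter.

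Myeloid cells held the IL-21 and IL-4 receptor chains with little Il2rb. Il4ra was higher in myeloid cells than in lymphocytes, with a log2 difference of −1.13 ± 0.14 for lymphocytes against myeloid cells (edgeR, adjusted p = 2.352e-09), at 94.5 CPM in macrophages, 107 ± 14.1 in monocytes and 90.0 ± 28.4 in dendritic cells. This is a contrast of class means, and Foxp3 cells had the highest mean of any class (122.8 ± 41.3), above B cells (74.2), conventional CD4 cells (56.2), NK cells (46.1) and CD8 cells (41.5). Il15ra differed in the same direction (−1.53 ± 0.28 for lymphocytes, adjusted p = 6.304e-06), a call lost in cells thinned to 1000 UMIs (−1.13, adjusted p = 0.309). Its mean was 23.1 CPM in dendritic cells, 14.9 in monocytes and 12.9 in macrophages, and 15.1 in CD8 and 13.02 in conventional CD4 cells against 2.53 to 7.37 in NK, Foxp3 and B cells. The macrophage value is library 2 alone, where monocytes had less (8.79) and dendritic cells more (42.9). Il2rb differed the other way (5.77 ± 0.34). Il13ra1, which pairs with Il4ra in a second IL-4 receptor that needs no gamma chain, was lower in lymphocytes too (−5.83 ± 0.52, adjusted p = 2.204e-09), at 17.6 in macrophages and 38.7 ± 26.1 in monocytes against 0 to 3.52 in the 5 lymphocyte classes.

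To read these levels beside those of RNA particular to T cells, each level in the myeloid cells of library 2 was set against its level over the T cells of that library. In macrophages Trac and Trbc2, which encode the T cell receptor chains, stood at 0.220% and 0.243% of their T cell levels. Il21, at 0.187%, was no higher than these. Il21r stood at 48.9% (1208 UMIs), Il2rg at 46.1% and Il7r at 9.12% (269 UMIs in 167 of 1776 cells), while Il2ra was at 2.04% and Il2rb at 0.769%. Monocytes of library 2 had Trac at 0.942%, Il21r at 61.1%, Il2rg at 33.9% and Il7r at 8.15%, with no UMI of Il2ra or Il2rb. In B cells Il7r gave no UMI in library 2, the library of the macrophages, whose level was 19.7 CPM. Libraries 1 and 3, with no macrophage sum, gave 6.27 and 13.5 CPM in B cells, from 5 and 2 UMIs. The macrophage gate took cells with no Cd3 UMI, which bears on Trac and Trbc2 as on the members.

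**Figure D3:**
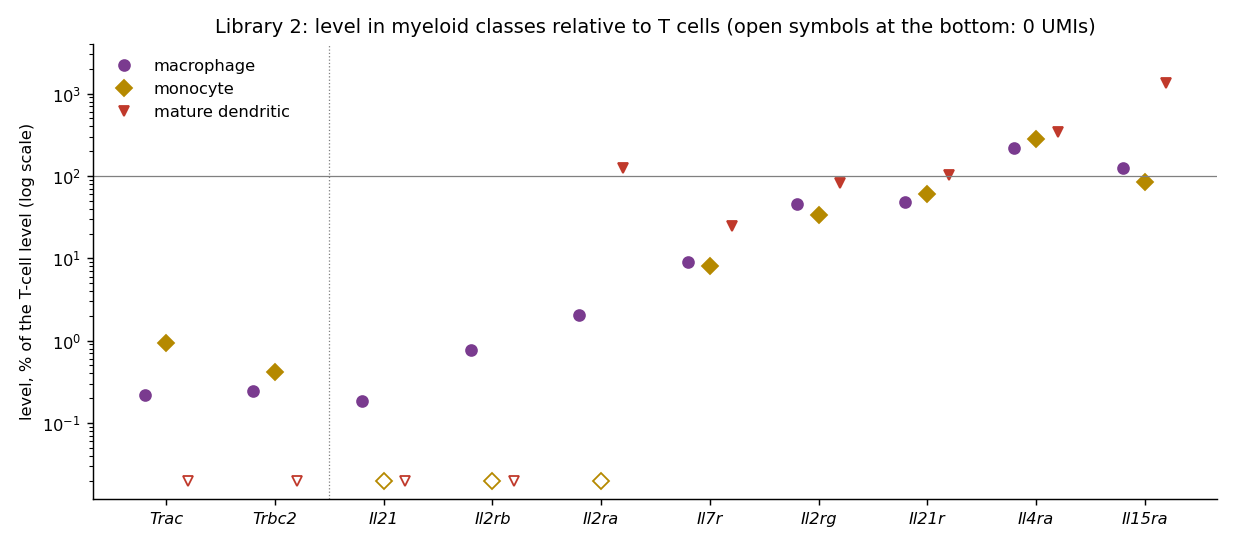
Level of 2 T cell receptor genes (left of the dotted line) and 8 members in macrophages, monocytes and mature dendritic cells of library 2, as a percentage of the level over T cells of that library on a log axis; the horizontal line marks 100% and open symbols at the bottom mark 0 UMIs. Il7r, Il2rg, Il21r, Il4ra and Il15ra lay above both T cell receptor genes in all 3 classes.

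Among the myeloid classes, dendritic cells had more Il15ra than macrophages (10.8, 42.9 and 15.7 CPM against 12.9; 1.04 ± 0.36, edgeR, adjusted p = 0.0247) and more Il2ra (7.23, 27.4 and 0 against 1.83; 3.30 ± 0.44, adjusted p = 1.56e-08). For both genes the ranges overlapped, with library 1 or 3 at or below the macrophage value. The Il15ra call was lost with DESeq2 (0.80, adjusted p = 0.456), and both were lost when cells with UMIs of another lineage were kept (Il15ra 0.78, adjusted p = 0.193; Il2ra 1.11, adjusted p = 0.128). Thus 2 of 8 members tested were higher and none lower, where 23.2% of all genes were called, 9.56% higher and 13.6% lower. Between monocytes and macrophages 0 of 8 members were called by edgeR (2 at an unadjusted p under 0.05, Il2rg and Il2ra), where 6.47% of all genes were, 2.48% higher and 4% lower, and DESeq2 called 0.

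The dendritic cells split by Ccr7, Fscn1 and Ccl22 into mature and other cells, and the mature cells were where most of the Il15ra and Il2ra UMIs lay. Only library 2 had enough mature cells (50, against 121 other dendritic cells), so the mature arm is 1 sum, which the fit assumes to vary like the other sums. There Il15ra was 138.5 against 13.9 CPM, Il15 38.5 against 3.88, Il2ra 110.3 against 2.33 and Il7r 53.9 against 6.20. Il21r (185 against 46.5), Il2rg (377 against 156) and Il4ra (149 against 69.8) were higher as well, and Il2rb was at 0 in both. The other dendritic cells of library 1 had 8.17 CPM of Il15ra, 4.09 of Il2ra and 106 of Il21r.

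In the edgeR fit, Il15ra was higher in mature cells by 3.51 ± 0.43, Il2ra by 5.35 ± 0.57, Il15 by 3.50 ± 0.92 and Il7r by 3.01 ± 0.56. Il21r was higher by 1.88 ± 0.33, Il2rg by 1.25 ± 0.28 and Il4ra by 1.12 ± 0.35. Calls here lean on the spread of the other sums, because the mature arm is 1 sum. Il15 rested on 15 UMIs in mature and 5 in other dendritic cells of library 2. It did not pass the filter on low counts in the fit over all classes, and passed here with the mature cells as their own sum. Its test therefore depended on the sum it compares. Thus 7 of 9 members tested were higher and none lower, where 8.22% of all genes were called, 5.29% higher and 2.93% lower. That count includes Il15, whose test depended on the mature sum, and every call in it leans on this 1 sum. No conclusion is therefore drawn from setting it beside the share of all genes. Mature cells were the shallower of the 2 groups, with a median of 7350 UMIs against 10586. When the 3 and 4 mature cells of libraries 1 and 3 were added as sums, Il15ra was higher by 3.21 (adjusted p = 6.619e-08) and Il4ra by 0.99 (adjusted p = 0.0452). With cells thinned to 1000 UMIs none of the 6 still tested passed the threshold, with differences of 2.99 for Il15ra, 9.01 for Il2ra, 1.59 for Il2rg, 2.58 for Il4ra, 0.59 for Il21r and 1.00 for Il7r. The Il4ra call was also lost when cells with UMIs of another lineage were kept (0.68, adjusted p = 0.315). Of the pathway genes, Stat3 (1.65), Stat5a (2.37) and Socs2 (7.79) were higher too, Socs2 at 313 CPM in mature cells, though in thinned cells it was not called (1.74, adjusted p = 0.404). No Trac or Trbc2 UMI was present in these 50 cells.

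Il15 and Il15ra, which must meet in the same cell for IL-15 to be shown to others, were, without thinning, both detected in 7 of 50 mature dendritic cells of library 2 (14.0%, exact 95% interval 5.82 to 26.7) and in 0 of 121 other dendritic cells, which allows a share of up to 2.48%. In macrophages 10 of 1776 cells (0.563%) held both. With cells thinned to 1000 UMIs the counts were 1 of 45 mature (2.22%, exact 95% interval 0.0563 to 11.8), 0 of 118 other dendritic cells and 0 of 1754 macrophages, so no difference was detectable at that depth. The intervals cover counting error only. Il2rb was at 0 among 389842 UMIs of the mature cells, at least 153-fold below the pooled NK level, so Il2ra was present there with no detected beta chain.

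Complete receptors were counted as cells with a UMI of every chain, after thinning to 1000 UMIs. For the IL-21 receptor (Il21r with Il2rg) the share was 14.7% ± 5.10 in Foxp3 cells, 10.3% ± 6.24 in CD8 cells, 9.82% ± 3.30 in conventional CD4 cells, 7.14% ± 0.0903 in B cells and 1.54% in macrophages (SD, n = 3 libraries; macrophages 1). Without thinning these shares were 43.2%, 39.5%, 27.9%, 21.1% and 32.3%, so the place of macrophages among the classes depended on depth, with a median of 7504.5 UMIs per macrophage and 2537 per conventional CD4 cell in library 2. Plasma cells gave 0 of 61 in library 2 after thinning, which allows up to 4.92%.

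For the receptor of intermediate affinity for IL-2 and IL-15 (Il2rb with Il2rg) the thinned share was 35.2% ± 12.5 in NK cells, 18.6% ± 5.71 in Foxp3, 15.5% ± 8.30 in CD8 and 12.2% ± 3.97 in conventional CD4 cells, and 0.515% in B cells. NK cells were above the 3 T cell classes in each library. All 3 chains of the high affinity IL-2 receptor were found in 7.93%, 3.96% and 6.67% of Foxp3 cells (6.18% ± 2.03), above the 1.17% ± 1.13 of conventional CD4 cells in each library and with no overlap. Il7r with Il2rg was found in 12.9% ± 3.80 of conventional CD4, 11.9% ± 3.93 of Foxp3 and 6.95% ± 0.820 of CD8 cells and in 0 of 516 B cells. Il4ra with Il2rg was found in 6.86% ± 1.85 of Foxp3, 4.82% ± 6.34 of dendritic and 3.96% ± 2.10 of B cells, and the values of B and dendritic cells overlapped those of Foxp3 cells.

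**Figure D4:**
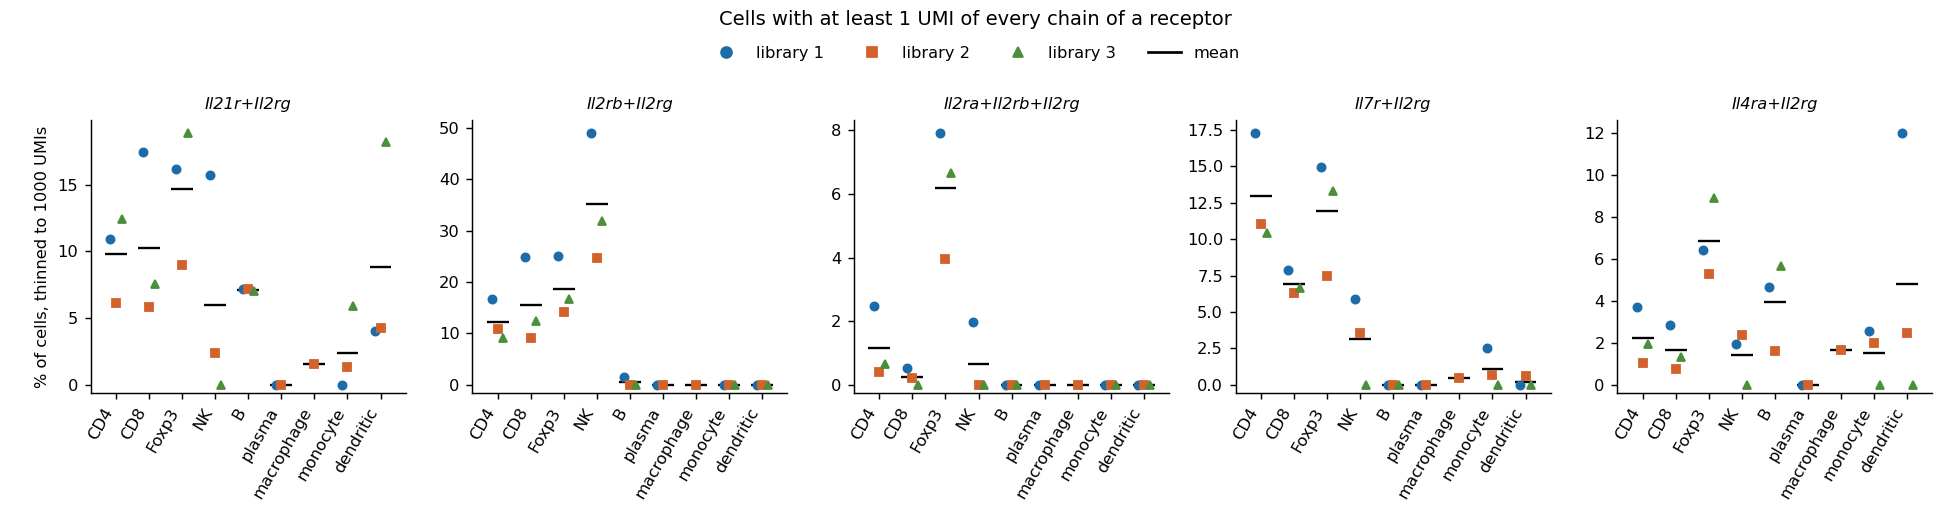
Share of cells (%, after thinning each cell to 1000 UMIs) with at least 1 UMI of every chain named above each panel, by class, with one symbol per library and a bar at the mean. The NK share of Il2rb with Il2rg and the Foxp3 share of all 3 IL-2 receptor chains lay above those of the other classes in each library.

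The conventional CD4 cells were then split by whether they held an Il21 UMI (76 and 120 positive cells in libraries 1 and 2, where library 3, with 8, was left out on the positive side). The positive cells were the deeper ones, with a median of 3572.5 and 3500.5 UMIs in libraries 1 and 2 against 2846 and 2417 in the negative cells. Il7r was lower in the positive cells, at 308 and 152 CPM against 593, 369 and 473 in the negative cells of libraries 1, 2 and 3. The groups did not overlap, and the difference was −1.06 ± 0.22 (edgeR, adjusted p = 0.00570); without library 2 it was −0.90 (adjusted p = 0.220), and with cells holding UMIs of another lineage kept it was −1.16 (adjusted p = 0.0898). With cells thinned to 1000 UMIs it was still called. Thus 1 of 7 members tested was called, and lower, where 0.536% of all 9703 genes were called, 0.258% higher and 0.278% lower.

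Il21r itself was 239 and 142 CPM in the positive cells and 261, 141 and 322 in the negative cells. The difference was −0.16 ± 0.22 (adjusted p = 0.973; unadjusted 95% interval −0.59 to 0.27). Il4ra was 31.2 and 22.8 in positive and 77.6, 48.5 and 56.9 in negative cells with no overlap, from 21 UMIs in the positive cells, and was not called (−1.19 ± 0.37, adjusted p = 0.182). Il2ra (0.31 ± 0.28), Il2rb (0.17 ± 0.30) and Il2rg (−0.07 ± 0.21) were not called.

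Among 14 pathway genes tested, Socs2, a feedback inhibitor that STAT5 induces, rose in the positive cells to 239 and 283 CPM against 91.6, 104 and 54.1 (1.48 ± 0.22, adjusted p = 1.73e-05), and in cells thinned to 1000 UMIs the difference was 0.81 and not called (adjusted p = 0.672). Il2 rose by 2.07 ± 0.41 (adjusted p = 0.0204), at 305 and 43.6 CPM against 40.1, 24.7 and 31.3, and this rested on library 1, without which it was 0.76 (adjusted p = 1.0); without library 3 its adjusted p was 0.151, and with stricter gates the difference was 0.29 (adjusted p = 1.0).

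**Figure D5:**
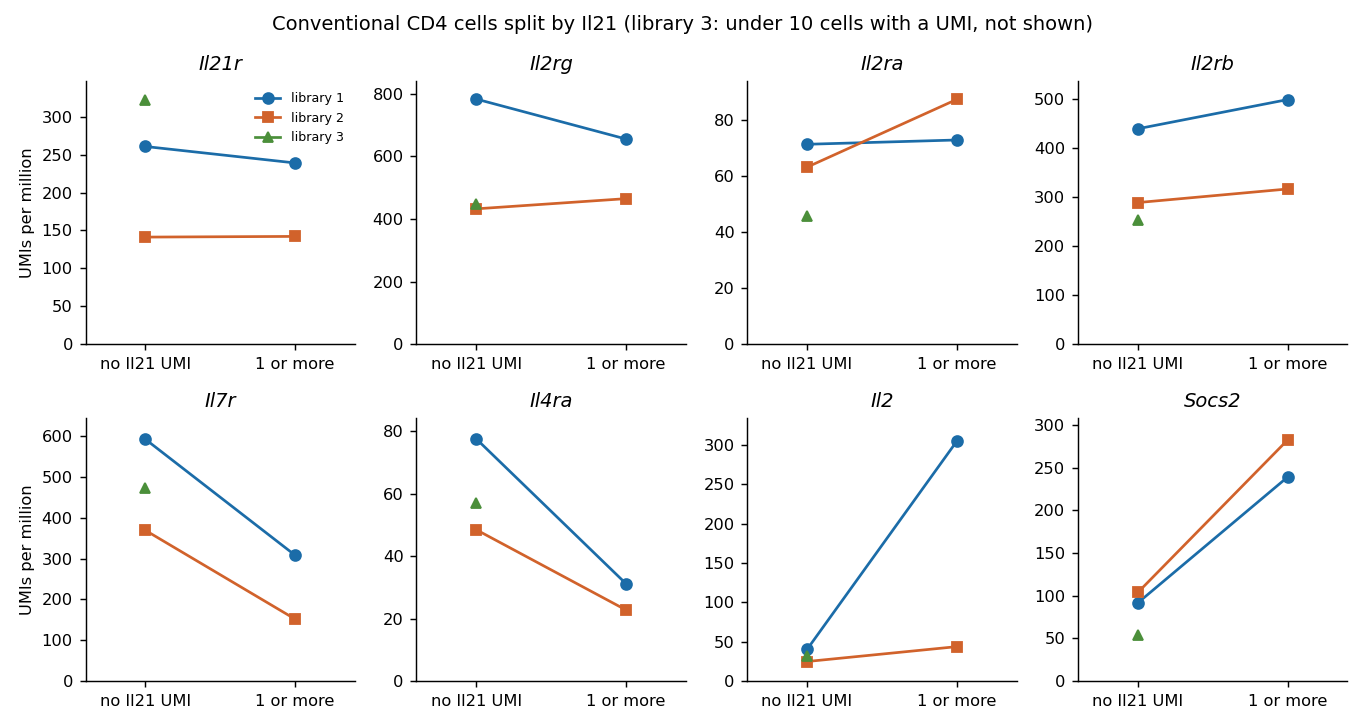
Level (CPM, axes from 0) of 6 members and of Il2 and Socs2 in conventional CD4 cells without and with an Il21 UMI, with lines joining the 2 groups of a library; library 3 has no point on the right because it held under 10 positive cells. Il7r fell in both libraries, Socs2 rose in both, and Il21r stayed within the spread of the negative cells.

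The genes whose levels over the 24 class sums were most like a member's were read as a description, with Pearson's r of log2(level + 1) over 5443 genes. For Il21 they were 1700019D03Rik (0.952), then Cd40lg (0.932) and Tnfsf11 (0.920), both T cell members of the TNF family. For Il2ra they were Podnl1 (0.894), Tnfrsf4 (0.887), the costimulatory receptor OX40, and Sdf4 (0.878). For Il7r they were Stk39 (0.918), Cish (0.908) and Cd247 (0.907), and for Il2rb S1pr4 (0.940), Hsd11b1 (0.936) and Lck (0.933). The most alike gene reached 0.936 for Il21r (Spsb3), 0.943 for Il2rg (Mbnl1), 0.933 for Il4ra (Cmtm6), 0.816 for Il15ra (Ctnnbip1) and 0.792 for Il15 (Tmed3). The sums share libraries and depth, and no test was made.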

How the data were processed

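CD45+ cells from sciatic nerves were profiled with the 10x Genomics 5′ kit. The authors deposited gene by cell tables of UMI counts made with Cell Ranger 5.0.1 (library 1) or 6.1.2 (libraries 2 and 3) and the mm10 genome, with no normalization. The matrix of library 1 came with no gene list and took the row order of the others, checked by the correlation of gene totals (Spearman's rho 0.950 and 0.929, against 0.355 and 0.324 with rows shifted by 1).

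Cells with at least 300.0 UMIs, at most 5000 genes and at most 20% mitochondrial UMIs were kept (3848, 8256 and 1533), and 2140, 4671 and 665 met a gate on the 42 marker genes. Conventional CD4, Foxp3 and CD8 cells had at least 2 Cd3 UMIs and UMIs of Cd4, Foxp3 or Cd8a and Cd8b1; the other classes had no Cd3 UMI and UMIs of Ncr1 and Klr genes (NK), B cell genes such as Cd79a, Cd79b and Ms4a1 (B), Jchain with Sdc1, Tnfrsf17 or Derl3 (plasma), complement C1q (macrophage), Ly6c2, Vcan, Chil3 and F13a1 (monocyte), or Flt3, Zbtb46, Xcr1, Clec9a, Cd209a, Fscn1 and Ccl22 (dendritic). UMIs of another lineage excluded a cell. Scrublet in scanpy 1.11.5 called 0, 0 and 2 doublets, so it did not work on libraries 1 and 2; the gates were relied on instead, and leaving out the highest scores at 0.8% per 1000 cells was an alternative.

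Counts were summed by class and library (at least 10 cells, 24 sums) and tested with edgeR 4.0.16 (R 4.3.3; TMM, filterByExpr, quasi-likelihood, library as a block, Benjamini-Hochberg adjustment over all genes, call at 0.05). The block was used because the classes of a library come from the same mice. With 1 to 3 libraries a class, p-values measure only the spread of these sums that is left after class and library, shared over all classes. A class with 1 sum adds nothing to that estimate. On simulated counts of 10534 genes for Foxp3 against conventional CD4 cells, 79% of 2-fold and 97% of 4-fold changes (100 genes each) were recovered, with 17 false calls. The changed genes were drawn only from genes above a minimum level, and no difference between libraries was simulated. These rates therefore do not cover sparse genes such as Il15 or classes read from 1 library. DESeq2 1.42.0, other scaling, filters, gates, depths and libraries were alternatives. Intervals of shares are exact binomial ones (scipy 1.17.1) at 95% and limits for a count of 0 use 3 counts; intervals of differences are 1.96 standard errors. Named were the 9 genes, 19 other pathway genes where called, up to 3 genes most alike to each member, and RNA tracers. The members and lists were chosen with earlier results of these data known.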

Additional observations from a re-analysis of the deposited data

Results flagged for a closer look

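Cells that met no gate, which no comparison used, held much of the signal of every member. They held 487 UMIs of Il21, 6308 of Il21r, 15320 of Il2rg, 1851 of Il2ra, 10716 of Il2rb, 7296 of Il7r, 2947 of Il4ra, 417 of Il15ra and 102 of Il15, between 41.6% (Il15) and 60.2% (Il7r) of each gene's UMIs.

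Most of the Il21 UMIs in these cells lay in cells with T cell transcripts. T cells that also held UMIs of another lineage gave 265 (132 of 1950 cells, 11.9 CPM, UMIs of Il21 for every 1000000), T cells with no Cd4, Cd8 or Foxp3 UMI gave 134 (72 of 2374 cells, 19.8 CPM) and T cells with another combination of these gave 78 (47 of 477 cells, 23.4 CPM). Cells with no Cd3 UMI gave 9, in 6 of 744 cells. Which class these cells belong to was not tested.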

How the results depend on the processing

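Of 174 alternative values for the results that answer a comparison, 141 held, as did 1102 of 1219 for other named genes. A difference held if it kept its direction and its side of the threshold. A share of cells, which has no test, held if it stayed within the SD over libraries of its main value. With no replicate block, which drops the pairing of classes by library, the calls of Il15ra in dendritic cells against macrophages (0.84) and Il2rb in NK against CD8 cells (1.11) were lost, as were those of Il4ra (1.03) and Il7r (−0.87) in Foxp3 against conventional CD4 cells, Il21r in NK against CD8 cells (−0.99), Il7r in CD8 against conventional CD4 cells (−1.16) and by Il21 (−1.12), Il2 by Il21 (2.31), Il21r (0.72) and Il2rg (0.54) in conventional CD4 cells against other classes, and Il21r (1.54), Il2rg (1.09) and Il4ra (0.97) in mature dendritic cells. With DESeq2 those 2 first calls were lost as well (0.80 and 1.24), and keeping cells with UMIs of other lineages gave 0.78 and 0.70, and 0.27 for Il21r in lymphocytes against myeloid cells, none called. In cells thinned to 1000 UMIs the calls of Il15ra in mature dendritic cells (2.99) and Il21r in plasma cells (−8.27) were lost, Il2rb in CD8 against conventional CD4 cells was called (0.58), as it was with no filter (0.63), and signs turned for Il21r (0.048), Il2rg (0.035) and Il2rb (−0.46) by Il21 and for Il15ra (−3.28), Jak3 (0.67) and Socs2 (−3.18) in plasma cells. Il4ra in B against T cells was called with 20 cells per sum (0.52), edgeR with RLE scaling (0.51), no immunoglobulin genes (0.51) and stricter gates (0.62). Il2rg in B against T cells turned sign with the other lineages kept (0.028).

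Leaving out a library gave 0.31 to 0.36 for Il21r in lymphocytes against myeloid cells, 0.57 to 0.66 for Il2rb in CD8 against conventional CD4 cells, 1.10 to 1.18 for Il2rb in NK against CD8 cells, −0.18 to 0.048 for Il2rg in B against T cells and −0.25 to 0.085 for Il2rg by Il21. Il15 in lymphocytes against myeloid cells, −3.52 as a ratio of mean levels with no test, was −4.07 with no filter and −4.35 without library 3, both called. Without library 2 no macrophage or mature dendritic sum remained, so those contrasts gave no value.

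Shares of cells followed depth: with no thinning and at 500 UMIs they were 11.0% and 3.37% for Il21 in conventional CD4 cells, 43.2% and 3.08% for Il21r with Il2rg, 26.4% and 1.46% for all 3 IL-2 receptor chains and 24.4% and 1.77% for Il4ra with Il2rg in Foxp3 cells, 70.0% and 15.1% for Il2rb with Il2rg in NK cells, and 32.3% and 6.28% for Il7r with Il2rg in conventional CD4 cells. The cause of the lost calls was not tested. The alternatives of 3 cells per sum and no immunoglobulin genes, were chosen after seeing the data.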
